A study of Arabidopsis thaliana with 12 samples.

Results

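The seedlings described here are jazQ mycT, an Arabidopsis thaliana line of the Col-0 accession, set against wild-type Col-0. The line carries insertion alleles of 5 JAZ genes (jaz1-2, jaz3-4, jaz4-1, jaz9-4 and jaz10-1, together named jazQ). It also carries insertion alleles of 3 MYC genes (jin1-7 for MYC2, myc3-1 and myc4-1, together named mycT). The comparison takes 3 jazQ mycT and 3 Col-0 libraries, 6 of the 12 RNA-seq libraries of the series, and all 33602 genes of the deposited tables. The other 6 libraries are of jazQ and mycT, 3 of each, and enter where a gene is also compared with those mutants. Each library is a pool of about 200 whole seedlings with their roots, harvested 8 d after sowing from vertical plates with sucrose in continuous light, with no jasmonate applied. Genotypes shared plates. The libraries of Col-0 and jazQ are those of an earlier study by the same laboratory, prepared in parallel. Whole seedlings hold many cell types, so that fewer cells of a type and less RNA per cell cannot be told apart, and jazQ mycT is 1 line without complementation in these data.

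Jasmonate is the hormone by which plants turn on wound and insect defenses. In its absence JAZ proteins bind transcription factors and hold them inactive together with corepressors. When jasmonoyl-isoleucine binds the F-box receptor COI1, JAZ proteins are degraded and the factors are released. MYC2, MYC3 and MYC4 are the best known JAZ targets. They are basic helix-loop-helix factors that bind the G-box, and they promote glucosinolate synthesis in leaves and repress a parallel branch of the response that runs through ethylene and the ERF factors to the defensin PDF1.2. By this scheme loss of JAZ proteins and loss of MYC proteins would push these outputs in opposite directions. The octuple line combines both losses.

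The mutated genes were checked first. Values are TPM (transcripts scaled to gene length and to the same total in every library). JAZ10 was listed at 345, 347 and 320 TPM in jazQ mycT, against 4.45, 5.10 and 4.23 TPM in Col-0. JAZ3 was listed at 203, 267 and 267 TPM in jazQ mycT, against 11.2, 13.3 and 13.8 TPM in Col-0. Both loci thus carried many more reads in the mutant, by log2 fold changes of 6.36 (standard error 0.135) and 4.24 (standard error 0.146), with edgeR adjusted p = 4.54e-11 for JAZ10 and 5.75e-09 for JAZ3. Gene-level counts do not show which side of an insertion the reads come from, so these are levels of the locus and not of an intact transcript. JAZ1 was at 4.25, 5.03 and 5.34 TPM in jazQ mycT, against 60, 49.1 and 44.2 TPM in Col-0 (log2 fold change −3.30, edgeR adjusted p = 1.09e-07), and JAZ4 at 1.78, 2.21 and 2.55 TPM against 6.29, 5.48 and 4.77 TPM (log2 fold change −1.27, edgeR adjusted p = 0.000596). JAZ9, MYC2 and MYC3 overlapped between the genotypes. JAZ9 ranged over 70.3 to 80.1 TPM in jazQ mycT and 65.2 to 93.0 TPM in Col-0, MYC2 over 22.1 to 23.9 TPM and 23.7 to 29.0 TPM, and MYC3 over 52.8 to 59.4 TPM and 46.1 to 56.9 TPM. MYC4 was higher in jazQ mycT, at 25.9, 28.7 and 27.1 TPM against 18.9, 20.3 and 22.1 TPM in Col-0 (log2 fold change 0.51, edgeR adjusted p = 0.00748).

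Total counts were 16966084 to 22936849 per jazQ mycT library and 13350388 to 26347184 per Col-0 library. Genes of ribosomal RNA held 11% of the counts of jazQ mycT replicate 1 but 1.06% to 1.19% of the other jazQ mycT libraries and 1.28% to 2.12% of the Col-0 libraries. None of the 7 root hair, 7 other root or 6 shoot marker genes tested passed an adjusted p of 0.05 in edgeR's test of jazQ mycT against Col-0, with fold changes between −0.49 and 0.32 on the log2 scale. The shoot markers RBCS1A and LHCB1.1 and the root markers CASP1 and SCR were all expressed in both genotypes, as the label of whole plants says.

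Of 20888 genes with enough counts to test, 586 were higher in jazQ mycT than in Col-0 (2.81% of those tested) and 559 were lower (2.68%), by edgeR's quasi-likelihood test at an adjusted p under 0.05. A doubling or more was found for 114 of the genes that were higher, and a halving or more for 96 of those that were lower. The median log2 fold change was 0.54 among the rises and −0.55 among the falls. When each of the 12 libraries was left out in turn, 282 rises and 152 falls held every time. The counts dropped to 342 higher and 216 lower without jazQ mycT replicate 2, to 361 and 228 without jazQ mycT replicate 3, to 347 and 245 without Col-0 replicate 1, and to 350 and 269 without Col-0 replicate 2. On the log2(TPM + 1) scale with limma the balance was different, with 273 genes higher and 767 lower, or 26.2% higher against 51.2% in the count-based test. On that scale the median of all genes was itself shifted, by −0.0924 (and by −0.101 with a pseudocount of 0.1), against −0.0039 in the count-based test.

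Many of the genes that were higher lay close together. In the files' locus order, the 213 tested genes from AT2G01060 to AT2G04100, at the top of chromosome 2, included 147 that were higher in jazQ mycT, 25.1% of all rises, and 0 that were lower. Their median log2 fold change was 0.54 (1.46-fold) with quartiles of 0.41 and 0.65, against −0.0059 for all genes tested outside the stretch. In TAIR10.1 coordinates it runs over chr2:73208-1379130. The limits were set after the values were seen, and these figures are therefore a description with no test. Over the 169 better expressed of them (mean of 5 TPM or more), the median ratio to the mean Col-0 level on the log2 CPM scale (CPM, counts scaled to the library total after TMM normalisation) was 0.53, 0.58 and 0.54 in the 3 jazQ mycT libraries. It was 0.011 to 0.03 in jazQ, −0.019 to −0.013 in mycT, and 0.015, 0.0022 and 0.0033 in the 3 Col-0 libraries. All 3 jazQ mycT libraries thus stood at about the same raised level, and no jazQ or mycT library did. AT2G04100 was the last rise of the stretch, and of the next 100 tested genes 0 were higher and 4 lower, with a median of −0.023. Against jazQ 135 of the 213 genes were higher (1.33% of all genes tested were), and against mycT 150 were (4.05% of all genes were).

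The genes of the stretch carry unlike annotations. AT2G01250, a ribosomal protein gene, was at 854, 1000 and 986 TPM in jazQ mycT, against 652, 642 and 614 TPM in Col-0. CR88, a plastid HSP90 chaperone, was at 310, 331 and 356 TPM in jazQ mycT, against 210, 203 and 178 TPM in Col-0. MPK17, a mitogen-activated protein kinase, was at 163, 172 and 170 TPM in jazQ mycT, against 88.8, 91.1 and 105 TPM in Col-0. All were higher in every jazQ mycT library than in any Col-0 library. Other members were not called, such as the defensin gene LCR68 with 351, 449 and 376 TPM in jazQ mycT and 364, 410 and 408 TPM in Col-0. RGA, which encodes a DELLA repressor of gibberellin responses and is the one rise among 19 gibberellin genes, lies inside the stretch, at 63.3, 72.2 and 70.3 TPM in jazQ mycT, against 49.9, 53.9 and 55.0 TPM in Col-0 (log2 fold change 0.47, edgeR adjusted p = 0.000778). So do the only rises among 60 WRKY factors (WRKY3), 72 NAC factors (AT2G02450), 29 xyloglucan endotransglucosylases (EXGT-A3) and 33 heat shock proteins (CR88). Without the stretch, 439 genes were higher and 559 lower, and the share called higher was 2.12%.

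**Figure D1:**
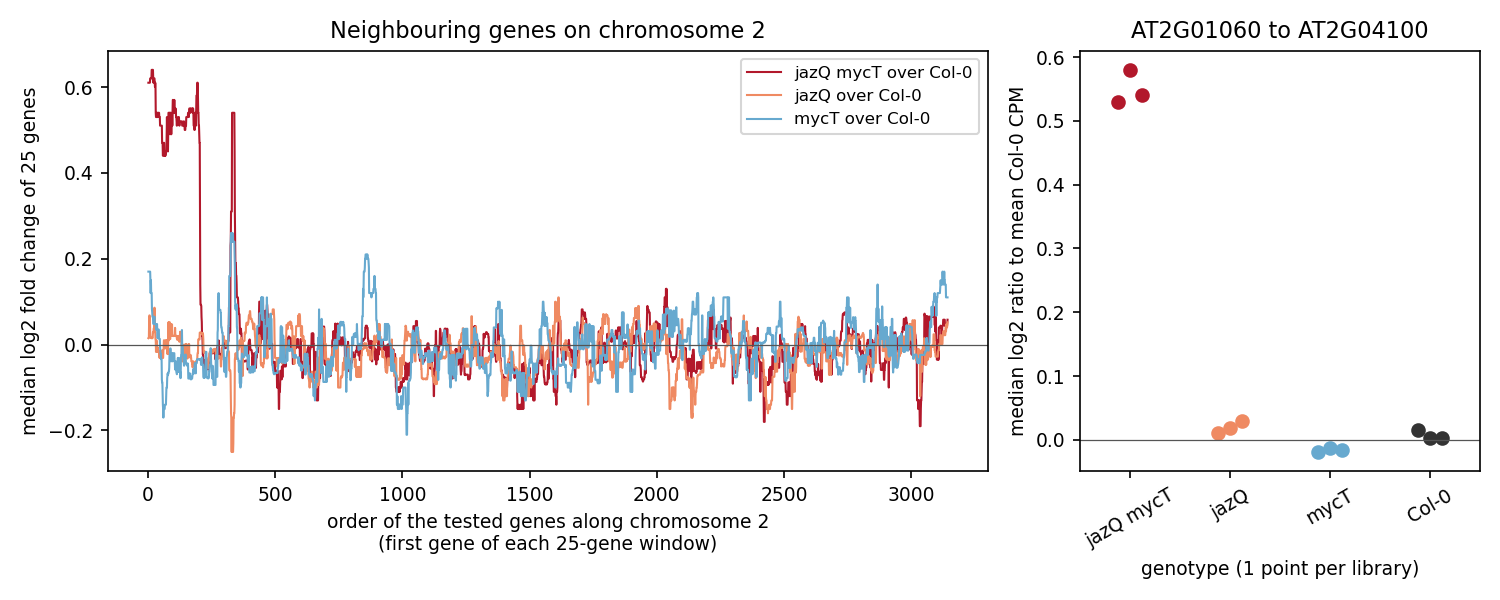
The left panel plots, along the order of tested genes on chromosome 2, the median log2 fold change of windows of 25 neighbouring genes for jazQ mycT, jazQ and mycT over Col-0, and the right panel gives for each library (1 point each) the median log2 ratio to the mean Col-0 CPM of the 169 better expressed genes from AT2G01060 to AT2G04100. Only the jazQ mycT line is raised at the start of the chromosome, and its 3 libraries lie at 0.53 to 0.58. An isolated peak lies further along (AT2G07170 to AT2G07751, median 0.54). The summed level of its genes was 334 CPM in jazQ mycT replicate 1, the library with most ribosomal RNA. It was 250 and 259 CPM in the other jazQ mycT libraries, 245 to 260 CPM in Col-0, 241 to 251 CPM in jazQ and 241 to 281 CPM in mycT. Whether ribosomal RNA has a part in the peak was not tested.

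Glucosinolate synthesis supplied 9 of the 15 steepest falls among genes that reached a mean of 5 TPM and did not overlap between the genotypes. Glucosinolates are the sulfur-rich defense compounds of the Brassicaceae: aliphatic ones are built from chain-elongated methionine and indole ones from tryptophan, through aldoximes that are conjugated to glutathione, cleaved, glucosylated and sulfated. Of 21 aliphatic synthesis genes tested 15 were lower in jazQ mycT (71.4%, against 2.68% of all genes) and 0 higher. Their median log2 fold change was −1.22, against −0.0039 over all genes. All 21 had a negative fold change. Of 14 indole synthesis genes 6 were lower (42.9%) and 1 higher (7.14%, against 2.81% of all genes), with a median of 0.093. For the 21 genes called lower on both lists no jazQ mycT library reached the lowest Col-0 library, Col-0 replicate 3 was the lowest of the Col-0 libraries for each of the 21, and 17 kept the call whichever library was left out. Leaving out Col-0 replicate 3 changed their median fold change to −1.68, against −1.46 with it.

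Chain elongation held the steepest falls. IPMI1, a small subunit of the isopropylmalate isomerase of methionine chain elongation, was at 0.18, 0.51 and 0.36 TPM in jazQ mycT, against 29.4, 33.5 and 13.5 TPM in Col-0 (log2 fold change −6.12, standard error 0.407, edgeR adjusted p = 2.66e-06). IPMI2 was at 3.42, 4.36 and 3.91 TPM in jazQ mycT, against 56.9, 48.8 and 26.3 TPM in Col-0 (log2 fold change −3.40, edgeR adjusted p = 5.26e-06). The methylthioalkylmalate synthase MAM3 was at 7.59, 5.22 and 6.75 TPM in jazQ mycT, against 34.5, 26.7 and 15.2 TPM in Col-0, and MAM1 at 57.4, 55.9 and 52.5 TPM, against 147, 146 and 87.1 TPM. The 2 genotypes did not overlap for any of them. BAT5, which carries keto acids across the plastid envelope, fell by 1.75 on the log2 scale (edgeR adjusted p = 0.00132). BCAT4, the aminotransferase that opens the pathway, was not called, at 42.8, 36.4 and 34.2 TPM in jazQ mycT, against 52.6, 67.9 and 37.8 TPM in Col-0.

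Core and side-chain steps fell as well. CYP79F1, which makes the aldoxime of elongated methionine, was at 14.1, 13.3 and 10.8 TPM in jazQ mycT, against 40.2, 51.5 and 25 TPM in Col-0 (log2 fold change −1.46, edgeR adjusted p = 0.00275). The C-S lyase SUR1, shared by both branches, fell by 0.95 on the log2 scale, the glutathione transferase GSTU20 by 1.00, and the sulfotransferases SOT17 and SOT18 by 1.99 and 1.29 (edgeR adjusted p between 0.000433 and 0.00191). AOP2, which in other accessions encodes a side-chain modifying oxygenase and in Col-0 is known as a non-functional allele, was at 0.76, 0.38 and 0.65 TPM in jazQ mycT, against 6.95, 7.49 and 2.60 TPM in Col-0 (log2 fold change −3.08, edgeR adjusted p = 0.000497). The calls of CYP79F2, GSTF11, AT2G31790 and FMO GS-OX3 were weaker and were lost, at edgeR adjusted p of 0.0518 to 0.18, when Col-0 replicate 1 or jazQ mycT replicate 2, and for some of them other libraries, were left out.

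On the indole side 6 enzymes fell and 1 rose. CYP79B2 and CYP79B3, which turn tryptophan into indole-3-acetaldoxime, were at 8.97, 9.09 and 7.08 TPM and at 13.4, 12.8 and 11.5 TPM in jazQ mycT, against 45.2, 46.0 and 25.2 TPM and 58.7, 58.3 and 40.5 TPM in Col-0. Their log2 fold changes were −2.10 and −1.95 (edgeR adjusted p = 7.33e-05 and 5.67e-06). CYP83B1, which oxidises the aldoxime, fell by 1.51, the glutathione transferase GSTF9 by 1.65, the sulfotransferase SOT16 by 0.97 and the glucosyltransferase UGT74B1 by 0.83 on the log2 scale (edgeR adjusted p between 3.78e-05 and 0.00486). IGMT1, a methyltransferase that decorates the indole ring, moved the other way, at 125, 142 and 123 TPM in jazQ mycT, against 56.6, 61.1 and 80.9 TPM in Col-0 (log2 fold change 1.07, edgeR adjusted p = 0.00377).

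**Figure D2:**
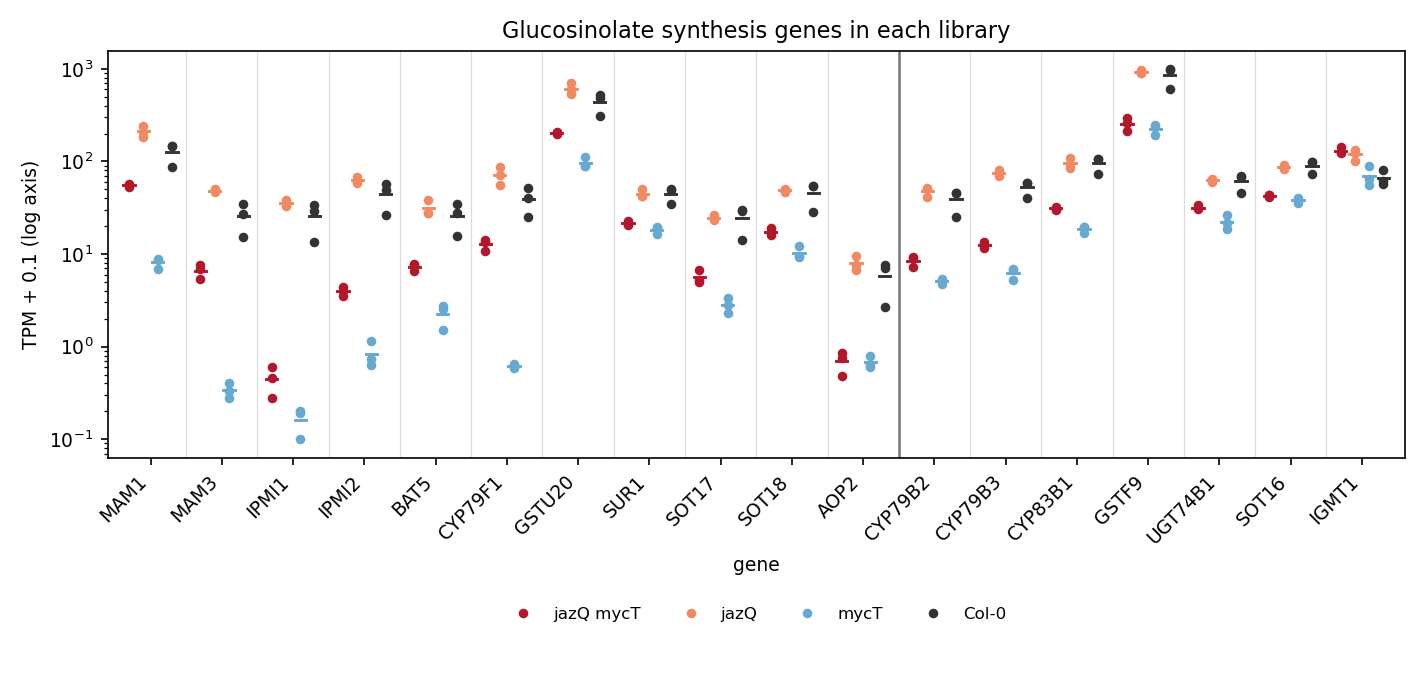
TPM plus 0.1 on a log axis of 11 aliphatic (left of the dark line) and 7 indole glucosinolate synthesis genes in each library (1 point each, bars are means of 3 libraries) of jazQ mycT, jazQ, mycT and Col-0. For every gene shown but IGMT1 the jazQ mycT libraries lie below all Col-0 libraries, IPMI1 being the most distant with 0.18 to 0.51 TPM against 13.5 to 33.5 TPM.

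For most aliphatic genes the octuple mutant lay below jazQ and above mycT. Against jazQ 19 of the 21 were lower (0.876% of all genes tested were), with a median difference of −1.5, and against mycT 15 were higher and 0 lower (4.05% of all genes were higher and 3.77% lower), with a median of 1.79. CYP79F1 was at 10.8 to 14.1 TPM in jazQ mycT and averaged 0.517 TPM in mycT (log2 difference 4.87, edgeR adjusted p = 1.63e-05). BCAT4 averaged 2.13 TPM in mycT, and jazQ mycT was higher by 4.20 on the log2 scale (edgeR adjusted p = 1.94e-06). MAM1 was higher than in mycT by 2.80 and MAM3 by 4.71, with edgeR adjusted p = 4.02e-06 and 5.18e-05. For AOP2 the difference from mycT was 0.085 and did not pass the test (edgeR adjusted p = 0.948), and for CYP79B2 it was 0.77 (edgeR adjusted p = 0.0572). CYP79B3 was higher than in mycT by 1.05 (edgeR adjusted p = 0.0018).

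Of the regulators listed, 16.7% were called higher, against 2.81% of all genes. Of the supply genes, 20% of the sulfate assimilation list and 12.5% of the tryptophan list were called lower, against 2.68% of all genes. Each share rests on 1 or 2 genes. Of the 6 MYB factors that drive glucosinolate genes, MYB34, of the indole branch, was higher, at 67.3, 68.5 and 66.3 TPM in jazQ mycT, against 38.3, 46.9 and 49.2 TPM in Col-0 (log2 fold change 0.70, edgeR adjusted p = 0.00589). Its level in mycT averaged 65.7 TPM. The aliphatic regulator MYB28 was at 38.0 to 44.3 TPM in jazQ mycT, against 39.5 to 48.2 TPM in Col-0, and was not called. Of 10 sulfate assimilation genes 2 were lower and 0 higher, both of them kinases that make the sulfate donor for the sulfotransferases. APK2 was at 12.4, 13.4 and 11.1 TPM in jazQ mycT, against 49.3, 50.1 and 27.6 TPM in Col-0, and APK1 at 48.0, 46.7 and 50.5 TPM, against 118, 130 and 72.8 TPM. Of 8 tryptophan synthesis genes, ASA1, the first committed enzyme, fell by 0.43 on the log2 scale (edgeR adjusted p = 0.00946), and the other 7 were not called. CB5-C, a cytochrome b5, ranked among the 15 steepest falls at 12.7, 12.5 and 13.1 TPM in jazQ mycT, against 55.2, 71.3 and 35.9 TPM in Col-0.

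The G-box, the CACGTG motif that MYC factors bind, was looked for in the 500 bases before the annotated gene start, on both strands. It was present in 10.2% of 20695 tested genes with such a window, in 11.6% of the genes called lower and in 11.3% of those called higher. Of the 21 aliphatic synthesis genes 7 held one, and of the 14 indole genes 0 did. Among the 21 glucosinolate genes called lower it stood in SUR1, GSTU20 and FMO GS-OX3 (14.3%, against 10.2% of all tested genes). The other aliphatic genes with a G-box were not called. It also stood before NAI1 and NAI2, ER body genes called higher, whose windows are not shown. The 3 windows of 30 bases below are those of the genes that fell, shown as examples of where the motif lies. They have the motif in capitals and the strand of the gene, from RefSeq's TAIR10.1 genome.
SUR1 (chr2:8880473-8880502, minus strand): taatttttgtggCACGTGattttagttttg
GSTU20 (chr1:29485735-29485764, minus strand): aatcaagggaatCACGTGgtaaatgtacac
FMO GS-OX3 (chr1:23159389-23159418, plus strand): ttgcaaattccaCACGTGttttcactttct
The motif begins 50 bases before the gene start in SUR1, 363 bases before it in GSTU20 and 333 bases before it in FMO GS-OX3. A match is only a run of letters and says nothing of binding in these seedlings.

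Of 14 genes that break glucosinolates down, 6 were higher (42.9%, against 2.81% of all genes) and 0 lower. Their median log2 fold change was 0.36, and 11 of the 14 fold changes were positive. Only 3 of the 6 calls held whichever library was left out. The nitrile-specifier genes NSP3 and NSP4 were at 5.85, 6.60 and 6.36 TPM and at 18.7, 18.7 and 18.4 TPM in jazQ mycT, against 3.82, 3.62 and 4.05 TPM and 13.0, 13.1 and 11.6 TPM in Col-0. Both groups were tight and did not overlap (log2 fold changes 0.80 and 0.67, edgeR adjusted p = 0.000612 and 0.000772). The nitrilase NIT3 rose by 0.40 (edgeR adjusted p = 0.00118). The myrosinase TGG2, which hydrolyses glucosinolates when tissue is damaged, was at 188, 250 and 232 TPM in jazQ mycT, against 98.7, 147 and 148 TPM in Col-0. Its call (edgeR adjusted p = 0.0147) was lost without jazQ mycT replicate 2, at 0.0658. Without that library ESM1 (0.058) and NIT1 (0.132) also failed in edgeR's test, which left 3 rises. With limma on log2(TPM + 1), ESM1, NIT1 and NIT3 did not pass, at adjusted p of 0.114, 0.514 and 0.0616.

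ER bodies are spindle-shaped compartments of the Brassicaceae that store beta-glucosidases away from their substrates. Of 9 ER body genes 8 were higher (88.9%, against 2.81% of all genes) and 0 lower, with a median log2 fold change of 0.49. Of the 8 rises 6 kept the call whichever library was left out. The remaining gene had a log2 fold change of −0.87 and was not called. BGLU18, of inducible ER bodies, was listed with the wound markers instead and was called lower (log2 fold change −1.24). BGLU22 was at 286, 303 and 309 TPM in jazQ mycT, against 78.5, 81.0 and 86.3 TPM in Col-0 (log2 fold change 1.97, standard error 0.0664, edgeR adjusted p = 5.75e-09). BGLU21 was at 162, 155 and 158 TPM in jazQ mycT, against 78.0, 68.5 and 65.5 TPM in Col-0. BGLU23, the most abundant of them in these seedlings, was at 3509, 4254 and 4088 TPM in jazQ mycT, against 3401, 3407 and 3504 TPM in Col-0 (log2 fold change 0.30). Its call was lost in 5 of the 12 fits, without Col-0 replicate 1 or 2 or any jazQ mycT library, at edgeR adjusted p of 0.0557 to 0.146. PBP1, the lectin that binds the beta-glucosidase, was at 1865, 2372 and 2270 TPM in jazQ mycT, against 1601, 1567 and 1584 TPM in Col-0. NAI2, needed to form the bodies, and the membrane proteins MEB1 and MEB2 rose by 0.49, 0.35 and 0.46 (edgeR adjusted p between 0.00158 and 0.00837), but with limma on log2(TPM + 1) these 3 did not pass, nor did BGLU23 and NAI1, at adjusted p of 0.0563 to 0.311, which left 3 of the 8 rises. Compared with mycT 7 of the 9 were higher (4.05% of all genes were), and compared with jazQ 0 were higher and 1 lower, with a median difference of 0.034. Of 30 jacalin-related lectins outside the list 7 were higher (23.3%) and 2 lower (6.67%), with a median of 0.041. The rises included JAL31, JAL33 and JAL34 near PBP1 on chromosome 3, with rises of 0.43, 0.47 and 0.61.

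Root triterpene genes rose together. Thalianol, marneral and arabidiol are made in Arabidopsis roots by enzymes whose genes sit side by side in clusters, and the compounds are released or broken down around the root. Of 15 genes listed 12 had enough counts to test. Of these 10 were higher (83.3%, against 2.81% of all genes) and 0 lower, with a median log2 fold change of 1.69. Of the 10 rises 9 kept the call whichever library was left out. Marneral synthase MRN1 was at 10.4, 11.9 and 8.30 TPM in jazQ mycT, against 0.25, 0.95 and 1.33 TPM in Col-0 (log2 fold change 3.80, edgeR adjusted p = 0.000292). Its cluster neighbours CYP705A12 and MRO were at 17.6, 22.4 and 17.7 TPM and at 14.5, 17.5 and 14.7 TPM in jazQ mycT, against 1.26, 3.69 and 3.33 TPM and 3.86, 5.53 and 5.12 TPM in Col-0. Thalianol synthase THAS was at 83.1, 101 and 97.8 TPM in jazQ mycT, against 22.8, 37.0 and 36.0 TPM in Col-0, and the tailoring enzymes THAH and THAD rose by 1.82 and 1.73 on the log2 scale (edgeR adjusted p = 0.000319 and 0.000926). PEN1, the arabidiol synthase, rose by 0.84 (edgeR adjusted p = 0.000926), and the call of its neighbour CYP705A1 was lost without Col-0 replicate 1 (edgeR adjusted p = 0.0572). In jazQ MRN1 averaged 10.6 TPM and THAS 124 TPM. The median difference of the list from jazQ was −0.084 with 0 calls. That from mycT was 1.49, with 10 of 12 higher (4.05% of all genes were). None of the 7 other root markers was called, and their summed level was 51.8 to 60.1 TPM in jazQ mycT, against 60.8 to 63.1 TPM in Col-0 (median log2 fold change −0.0065). Their part in the triterpene result was not tested.

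Genes of small secreted proteins were among the 15 largest rises. AIR1 and its neighbour AT4G12545, both annotated with the lipid-transfer and seed-storage fold and first known from auxin-treated root cultures in the case of AIR1, were at 343, 388 and 298 TPM and at 421, 562 and 439 TPM in jazQ mycT, against 12.3, 26.8 and 41.9 TPM and 16.1, 37.9 and 84.1 TPM in Col-0. Their log2 fold changes were 3.80 and 3.47 (edgeR adjusted p = 0.00039 and 0.000926). Their sequence similarity means that short reads may be shared between them. The lipid-transfer type gene AT4G22610 was at 32.9, 42.6 and 32.2 TPM in jazQ mycT, against 2.38, 6.65 and 5.66 TPM in Col-0, and the defensin-like AT4G22214 at 21.0, 16.4 and 18.7 TPM, against 0.98, 2.07 and 2.98 TPM. The lipid-binding type genes with the MD-2-related lipid-recognition domain rose as well, AT2G26370 by 2.63 and AT5G23840 by 2.40 on the log2 scale. The jacalin lectin AT5G35940 was at 29.4, 32.9 and 30.2 TPM in jazQ mycT, against 8.07, 8.29 and 8.88 TPM in Col-0 (log2 fold change 1.98, edgeR adjusted p = 3.2e-08). Of all 68 lipid-transfer and 2S albumin genes, 5 were higher (7.35%, against 2.81% of all genes) and 0 lower, but their median was −0.076.

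**Figure D3:**
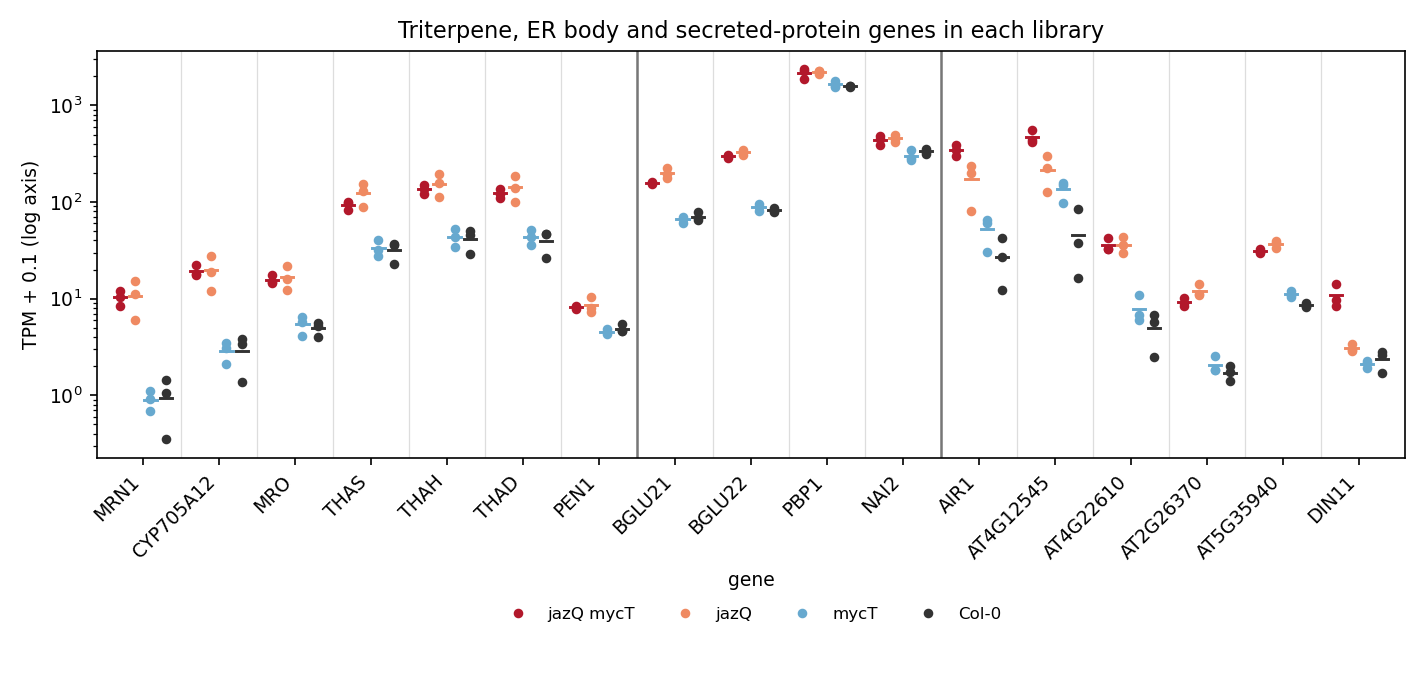
TPM plus 0.1 on a log axis of triterpene genes (left), ER body genes (middle) and genes of secreted proteins and DIN11 (right) in each library (1 point each, bars are means of 3 libraries) of jazQ mycT, jazQ, mycT and Col-0. The jazQ mycT libraries lie above all Col-0 libraries for every gene shown, from BGLU22 at 286 to 309 TPM against 78.5 to 86.3 TPM to MRN1 at 8.30 to 11.9 TPM against 0.25 to 1.33 TPM.

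DIN11 was higher in jazQ mycT than in each of the other genotypes. It encodes an oxygenase of the 2-oxoglutarate and iron type and was first described as a dark-inducible gene. It was at 9.54, 8.32 and 14.2 TPM in jazQ mycT, against 2.72, 1.61 and 2.53 TPM in Col-0 (log2 fold change 2.28, edgeR adjusted p = 4.75e-05), and it averaged 2.98 TPM in jazQ (log2 difference 1.94, edgeR adjusted p = 0.000212) and 2.01 TPM in mycT. CYP94B1, which oxidises jasmonoyl-isoleucine, was also highest in jazQ mycT, at 12.0, 15.9 and 14.9 TPM in jazQ mycT, against 7.72, 8.72 and 7.89 TPM in Col-0 (log2 fold change 0.91, edgeR adjusted p = 8.14e-05) and a mean of 9.52 TPM in jazQ (log2 difference 0.68, edgeR adjusted p = 0.00108) and 10.6 TPM in mycT (log2 difference 0.43, edgeR adjusted p = 0.0117).

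Defensins of the ethylene and jasmonate branch were raised. PDF1.3 was at 58.6, 54.6 and 76.8 TPM in jazQ mycT, against 0.73, 1.68 and 16.8 TPM in Col-0 (log2 fold change 3.43, standard error 0.589, edgeR adjusted p = 0.005). PDF1.2b was at 7.09, 6.58 and 10.6 TPM in jazQ mycT, against 0.32, 1.3 and 2.47 TPM in Col-0 (log2 fold change 2.71, edgeR adjusted p = 0.00831). PDF1.2 was at 10.2, 15.5 and 23.1 TPM in jazQ mycT, against 0.59, 0.73 and 7.25 TPM in Col-0. Col-0 replicate 3 was the highest Col-0 library for each of these genes, and still below every jazQ mycT library. The call of PDF1.2 (edgeR adjusted p = 0.0223) failed if Col-0 replicate 1 or 2 or jazQ mycT replicate 2 or 3 was left out, at 0.0596 to 0.091, and with DESeq2, at 0.0619. PDF1.2c was not called, with 3.08, 3.98 and 6.90 TPM against 0.24, 0.47 and 3.32 TPM. These genes are near copies of each other and their reads may be shared. In jazQ they were listed at or near 0, PDF1.3 at 0, 0 and 0.40 TPM and PDF1.2 at 0.54, 0 and 0.23 TPM, and jazQ mycT was higher for both (edgeR adjusted p = 0.000747 and 0.0032). The differences from mycT did not pass the test, with PDF1.3 at 35.6, 41.9 and 43.2 TPM (log2 difference 0.67, edgeR adjusted p = 0.433) and PDF1.2 at 18, 22.2 and 21.8 TPM (log2 difference −0.35, edgeR adjusted p = 0.702).

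The other genes listed with this branch were mixed. PR4, a chitin-binding protein, rose by 0.62 (edgeR adjusted p = 0.0117, lost without jazQ mycT replicate 3 at 0.0589), while the basic chitinase HCHIB fell by 0.64 and the ERF factor ORA47 by 2.17. ORA47 was at 1.93, 0.97 and 1.4 TPM in jazQ mycT, against 4.6, 11.9 and 5.62 TPM in Col-0, and its call (edgeR adjusted p = 0.0157) failed if Col-0 replicate 2 or jazQ mycT replicate 2 or 3 was left out, at 0.0609 to 0.0762. HCHIB lost its call in 6 of the 12 fits, without any single Col-0 library, jazQ mycT replicate 1 or 2 or mycT replicate 2, at edgeR adjusted p of 0.0501 to 0.107. Over the 11 genes tested 4 were higher (36.4%, against 2.81% of all genes) and 2 lower (18.2%, against 2.68%), with a median of 0.27. Of 59 ERF factors 0 were higher and 4 lower (6.78%, against 2.68% of all genes), and 0 of the 4 falls held in all 12 fits.

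The GCC-box, the GCCGCC motif that ERF factors bind, stood in the same 500-base windows of 4.38% of all tested genes and of 4 of the 11 genes on this list. It stood in 6.69% of all genes called higher and 2.33% of those called lower. Windows with the motif, in capitals, are shown for PDF1.2, PDF1.2b and PR4, because the motif is the reference point for this branch. These are 3 of the 4 genes called higher. No window with the motif was obtained for PDF1.3, the remaining gene called higher. The 4 genes with the motif are thus not to be read as the 4 called higher.
PDF1.2 (chr5:17907843-17907872, minus strand): tcagattaaccaGCCGCCcatgtgaacgat
PDF1.2b (chr2:11088968-11088997, plus strand): tcagattaaccaGCCGCCcatgcaaagcca
PR4 (chr3:1287131-1287160, minus strand): caatcacaattaGCCGCCtctcctcattag
The motif begins 222 bases before the gene start in PDF1.2, 143 bases before it in PDF1.2b and 388 bases before it in PR4. No binding was measured.

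**Figure D4:**
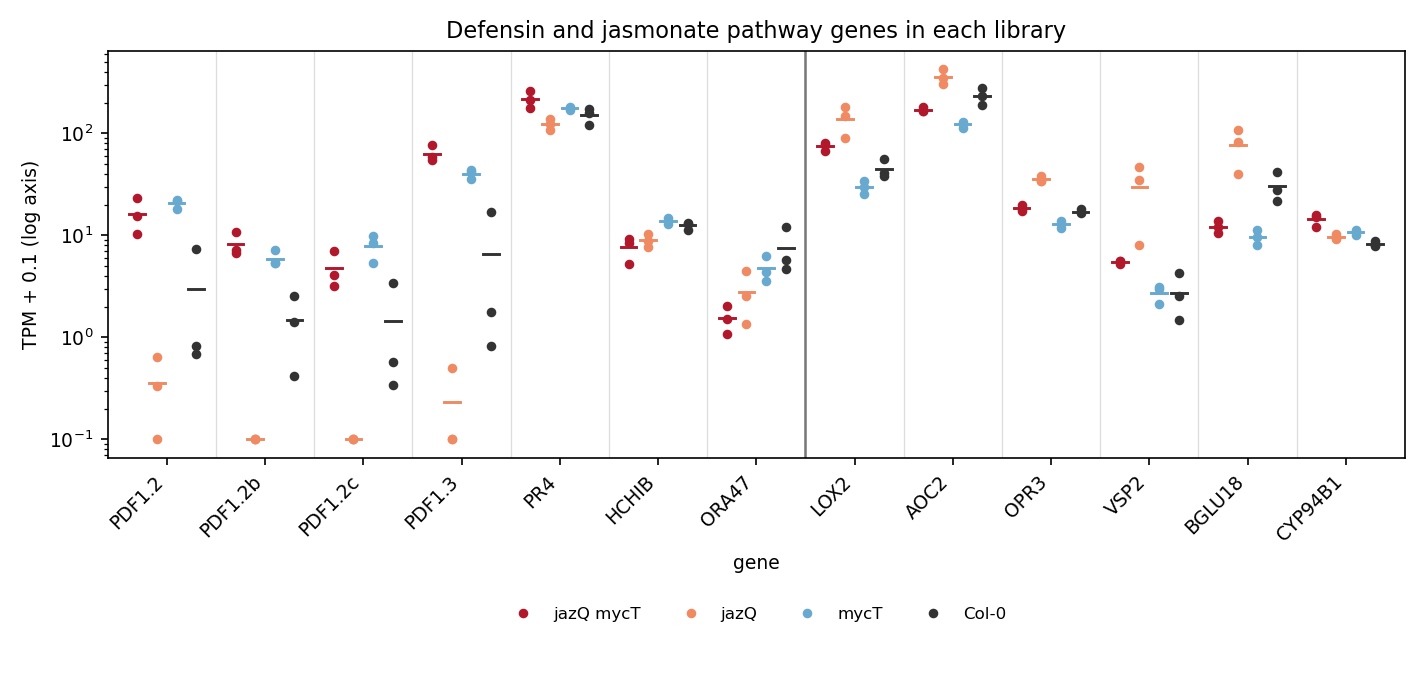
TPM plus 0.1 on a log axis of genes listed with the ethylene and jasmonate branch (left of the dark line) and jasmonate pathway genes (right) in each library (1 point each, bars are means of 3 libraries) of jazQ mycT, jazQ, mycT and Col-0. PDF1.3 lies at 54.6 to 76.8 TPM in jazQ mycT against 0.73 to 16.8 TPM in Col-0, and is at or near 0 in jazQ.

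Genes of the jasmonate pathway itself were called higher more often than the 2.81% of all genes, but few of these calls held when libraries were left out. Rises were found for 2 of 14 synthesis genes (14.3%), 5 of 13 signalling genes (38.5%) and 2 of 9 catabolism genes (22.2%), with 0 falls, and those that held whichever library was left out were 0, 1 and 1. The median log2 fold change of the synthesis genes was 0.28. LOX2, the plastid lipoxygenase of jasmonate synthesis, was at 67.5, 80.5 and 76.7 TPM in jazQ mycT, against 38.1, 56.5 and 40.6 TPM in Col-0. Its call (log2 fold change 0.83, edgeR adjusted p = 0.0341) was lost in 5 fits, without Col-0 replicate 1 or 3 or any jazQ mycT library, at 0.0719 to 0.135, and the smaller rise of AOC4 (0.29) failed if Col-0 replicate 1 or any jazQ mycT library was left out, at 0.0638 to 0.135. Relative to jazQ, AOC1, AOC2 and OPR3 were lower, by log2 differences of −0.81, −0.98 and −0.81 (edgeR adjusted p = 0.00145, 0.00118 and 0.000127), and relative to mycT 7 of the 14 were higher. Of the 13 jasmonate signalling genes other than the mutated ones, JAZ5 was higher at 4.30, 3.32 and 2.14 TPM in jazQ mycT, against 1.13, 1.25 and 1.06 TPM in Col-0 (log2 fold change 1.63, edgeR adjusted p = 0.00663), and kept this in all 12 fits. JAZ2, JAZ6, JAM1 and JAM2 rose by 0.37 to 0.45, and each lost its call in at least 4 fits, all of them in those without Col-0 replicate 1 or jazQ mycT replicate 1 or 2, at edgeR adjusted p of 0.0509 to 0.184 over the fits that lost it. COI1 was at 16.8 to 20.9 TPM in jazQ mycT, against 19.1 to 22.5 TPM in Col-0, and was not called.

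Of 7 wound markers tested 0 were higher and 1 lower, while 6 of the 7 fold changes were positive, with a median of 0.30. VSP2, an acid phosphatase used as a marker of MYC2-dependent wounding, was at 5.17, 5.49 and 5.55 TPM in jazQ mycT, against 1.39, 4.13 and 2.43 TPM in Col-0 (log2 fold change 1.23, edgeR adjusted p = 0.26). It averaged 29.7 TPM in jazQ, where jazQ mycT was lower by a log2 difference of −2.37 (edgeR adjusted p = 0.0211). BGLU18, of inducible ER bodies, was at 10.4, 13.6 and 11.9 TPM in jazQ mycT, against 21.8, 41.5 and 27.9 TPM in Col-0, and lost its call (edgeR adjusted p = 0.0364) in 7 of the 12 fits, without Col-0 replicate 2 or 3, jazQ replicate 1, mycT replicate 2 or any jazQ mycT library, at 0.051 to 0.15.

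Among the falls outside glucosinolates, genes of flowering time, the circadian clock and light responses were represented. Of 16 flowering-time genes 4 were lower (25%, against 2.68% of all genes) and 0 higher, with a median of −0.23. Only 1 of these 4 calls held in all 12 fits. GI, which links the clock to flowering, was at 5.75, 6.64 and 5.35 TPM in jazQ mycT, against 12.5, 11.8 and 10.1 TPM in Col-0 (log2 fold change −0.85, edgeR adjusted p = 0.000884), and held in all 12 fits. FT, the mobile flowering signal, was at 1.41, 1.32 and 2.33 TPM in jazQ mycT, against 5.29, 4.91 and 3.38 TPM in Col-0 (log2 fold change −1.32), and its call (edgeR adjusted p = 0.0124) did not hold when Col-0 replicate 1 or jazQ mycT replicate 2 was left out, at 0.063 and 0.0608. All 14 clock genes tested had a negative fold change, 6 of them called (42.9%, against 2.68% of all genes), with a median of −0.30. The largest was that of PRR9, a repressor in the morning loop, at 2.27, 2.59 and 2.56 TPM in jazQ mycT, against 8.16, 7.05 and 4.25 TPM in Col-0 (log2 fold change −1.30, edgeR adjusted p = 0.0128). None of the 6 clock calls held in all 12 fits, and that of PRR9 failed without Col-0 replicate 1 and without jazQ mycT replicate 2 or 3, at 0.0536 to 0.0674. The seedlings were grown in continuous light and no hour of harvest was found in the labels or methods. Of 16 light and shade genes 2 were lower (12.5%), and 1 of these calls held in all 12 fits. It was that of HFR1, a helix-loop-helix factor of shade responses. HFR1 was at 3.33, 4.58 and 4.46 TPM in jazQ mycT, against 9.82, 9.43 and 6.82 TPM in Col-0 (log2 fold change −0.99, edgeR adjusted p = 0.00124). MYBL2, a repressor of anthocyanin genes, was at 59.0, 66.9 and 59.1 TPM in jazQ mycT, against 133, 127 and 98.7 TPM in Col-0 (log2 fold change −0.85, edgeR adjusted p = 0.00767).

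The nutrient and growth families below were called lower more often than the 2.68% of all genes tested, but many of these calls did not hold when libraries were left out. Phosphate starvation genes included 4 falls of 14 (28.6%, median −0.29) and iron uptake genes 4 of 18 (22.2%, median −0.12). There were 0 rises in each, and none of these 8 calls held in all 12 fits. SPX1, a phosphate sensor, was at 27.5, 25.7 and 26.1 TPM in jazQ mycT, against 93.7, 72.4 and 36.7 TPM in Col-0 (edgeR adjusted p = 0.0277, and 0.0509 to 0.125 without Col-0 replicate 1 or 2 or any jazQ mycT library). Small auxin-up genes had 9 falls (15.3%) and 0 rises of 59, and 53 of the 59 were negative (median −0.35). Of those 9 calls only that of AT1G29460 held in all 12 fits. Of 72 NAC factors 6 were lower (8.33%), NAC003 the steepest of the 2 that held in all 12 fits, at 4.20, 4.28 and 5.90 TPM in jazQ mycT, against 13.8, 10.4 and 9.40 TPM in Col-0. Of 55 class III peroxidases 6 were lower (10.9%) and 3 higher (5.45%, against 2.81% of all genes). Only 3 of these falls and 0 of the rises held in all 12 fits. Of 23 expansins 3 were lower (13%) and 1 higher (4.35%), and 2 of the falls and the rise held in all 12 fits. EXPA8, a wall-loosening expansin, was at 13.6, 14.2 and 13.1 TPM in jazQ mycT, against 32.3, 35.8 and 33.4 TPM in Col-0. Another member, EXPA16, rose, at 5.23, 7.60 and 7.27 TPM in jazQ mycT, against 4.14, 4.59 and 3.68 TPM in Col-0.

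Other functional classes varied in their share of calls. Photosystem and antenna genes had 1 rise and 1 fall of 65, chlorophyll synthesis 0 of 25 (edgeR), and WRKY factors 1 rise of 60. Calvin cycle genes had 2 rises of 11 (18.2%), neither of which held whichever library was left out, and all 11 had a positive fold change with a median of 0.19. Salicylic acid genes had 1 rise of 12 (8.33%), that of PR5 (log2 fold change 0.75, edgeR adjusted p = 0.0106). Its call was lost without Col-0 replicate 1, at 0.0585. The marker PR1 was lower, at 9.62, 8.02 and 8.18 TPM in jazQ mycT, against 60, 19.4 and 18.4 TPM in Col-0. The 2 genotypes did not overlap for PR1, but it did not pass the test (log2 fold change −1.83, edgeR adjusted p = 0.0798). Anthocyanin and flavonol genes had 1 rise and 1 fall of 22. The enzyme DFR was at 16.8, 21.1 and 17.4 TPM in jazQ mycT, against 7.08, 11.6 and 9.36 TPM in Col-0 (log2 fold change 1.11, edgeR adjusted p = 0.0383), and lost its call in 8 of the 12 fits, without any single Col-0 or jazQ mycT library, jazQ replicate 1 or mycT replicate 2, at 0.051 to 0.16. Cytochromes P450 had 15 rises and 15 falls of 170 (8.82% each), with the triterpene enzymes among the rises and the glucosinolate enzymes among the falls.

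**Figure D5:**
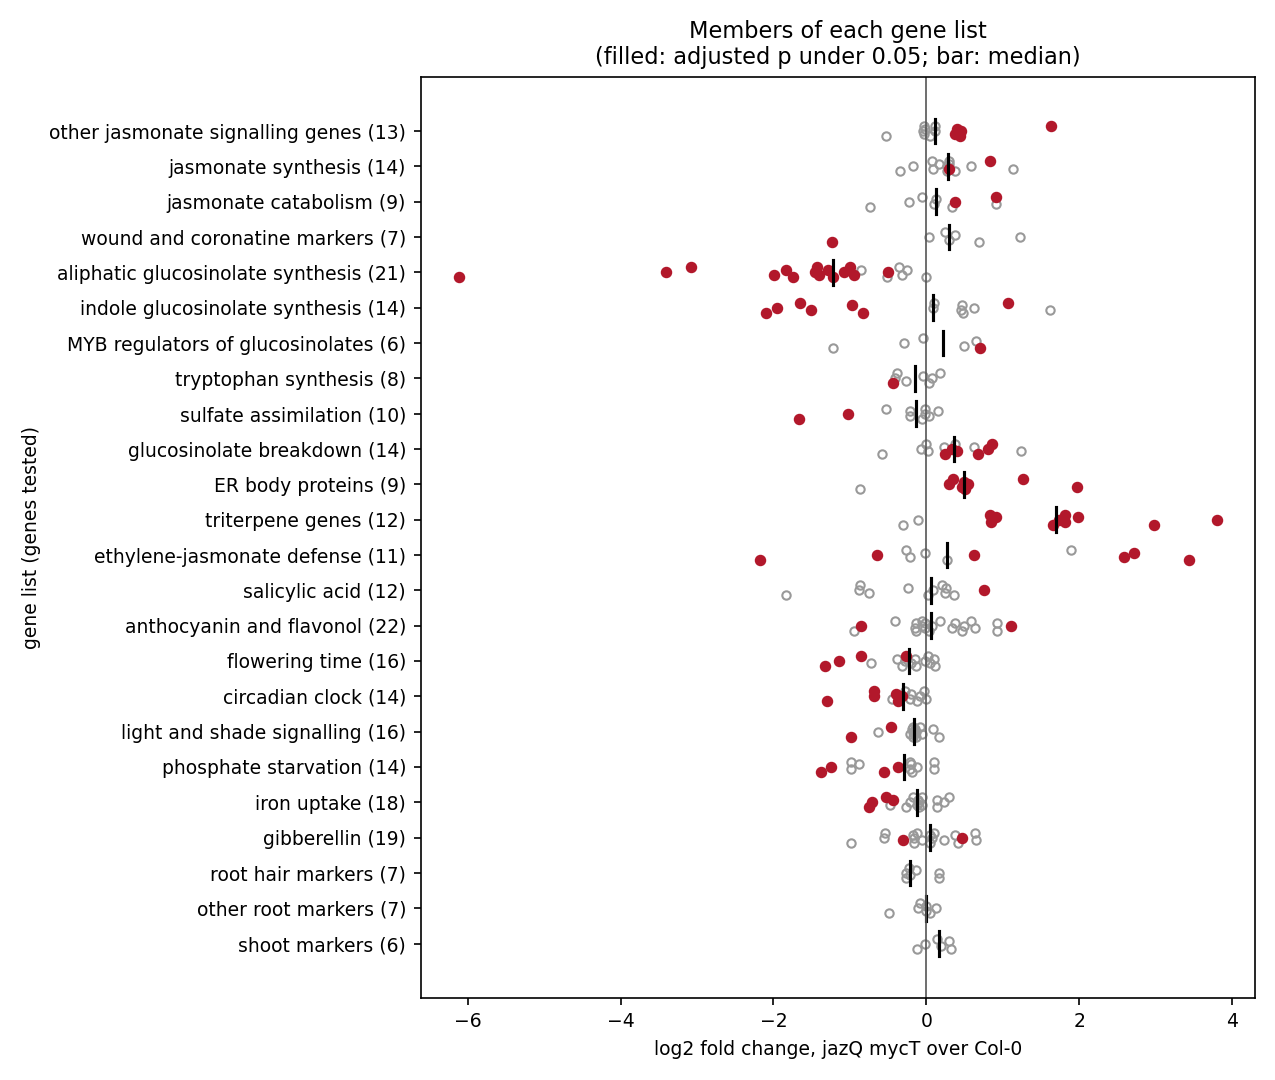
Log2 fold change of jazQ mycT over Col-0 for each tested member of 24 gene lists (number tested in parentheses), filled where edgeR's adjusted p was under 0.05, with the median of each list as a bar. The aliphatic glucosinolate list lies wholly below 0 (median −1.22), the triterpene and ER body lists lie mostly above it (medians 1.69 and 0.49), and the clock list lies below it (median −0.30).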

How the data were processed

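Single-end reads of 50 bases were made on an Illumina instrument. Per the labels and the paper's methods, the authors filtered them and estimated expression on TAIR10 gene models with RSEM 1.2.11 at its default parameters, and deposited 2 tables, one of expected counts and one of TPM per gene. No aligner or strand setting is named beyond these defaults. The deposited expected counts were rounded and tested here in R 4.3.3 with edgeR 4.0.16 (filterByExpr, TMM, quasi-likelihood, 1 term per genotype over all 12 libraries, Benjamini-Hochberg over 20888 genes, threshold 0.05). DESeq2 1.42.0 and limma 3.58.1 on log2(TPM + 1) were alternatives. The authors' TPM values are printed as levels. The fit was tested on simulated data.

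Gene lists, families and the rule for named genes were chosen with earlier results of these data known. Named were the list genes, the 15 largest rises and falls with a mean of at least 5 TPM and no overlap, and leading family members. AT2G01250, AT2G04039, MPK17, PAP7, CR88 and LCR68 and the limits of the chromosome 2 stretch were chosen after their values were seen. Gene names came from the files, with 32835 of 33602 genes matched in RefSeq's TAIR10.1. Every replicate pair differed by more than sampling noise. The p-values measure the spread among 3 pooled samples per genotype.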

Additional observations from a re-analysis of the deposited data

How the results depend on the processing

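The number of genes higher in jazQ mycT was 342 to 716 when single libraries were left out, and the number lower was 216 to 639, against 586 and 559. With limma on log2(TPM + 1) they were 273 and 767, with log2(TPM + 0.1) 267 and 763, and with log2(TPM + 1) and no filter 150 and 248. An adjusted p under 0.01 left 298 and 154, and an absolute log2 fold change of at least 1 left 114 and 96. Genes of ribosomal RNA and organelles held 14.3% of the TPM of jazQ mycT replicate 1, leaving less of the total to other genes. They held 1.12% and 1.22% in the other jazQ mycT libraries and 1.4% to 2.55% in Col-0. Why the TPM scale changed the balance was not tested. DESeq2 gave 652 and 625. Under a replicate block edgeR called 659 and 673 genes, and same-numbered libraries of jazQ mycT and Col-0 did not deviate together (correlations −0.122, 0.0654 and −0.195), so the block adds no pairing. Without the genes from AT2G01060 to AT2G04100 the counts were 439 and 559, and without ribosomal RNA and organelle genes 607 and 585, both alternatives added after seeing the data.

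Of 99 named genes called against Col-0, 73 kept the call whichever library was left out and 26 lost it in at least 1 fit. DESeq2 lost 1 of the 99, limma on log2(TPM + 1) 15, and the same without a filter 40. No named gene turned its direction against Col-0 under these settings. Differences from jazQ or mycT close to 0 did. As single libraries were left out, the difference of JAZ1 from jazQ ran from −0.13 to 0.042, that of BGLU22 from −0.058 to 0.0089 and that of MRN1 from −0.25 to 0.36 (−0.048 and −0.04 without jazQ mycT replicate 1 or 2). The difference of AOP2 from mycT ran from −0.21 to 0.31, and that of MYB34 from −0.02 to 0.15 (−0.016 without mycT replicate 3). Low counts limit genes under about 1 TPM.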

Other observations

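AT2G04380, annotated as an unknown protein, had a count of 0 in all 3 jazQ mycT libraries and counts of 69, 17 and 30 in the 3 Col-0 libraries, with means of 3.69 TPM in jazQ and 2.63 TPM in mycT. With a floor of 3 counts per library, Col-0 was at least 10.1-fold higher. This gene lies on chromosome 2 beyond the end of the raised stretch, and its loss was noticed after the values were seen. AT4G40085, annotated as other RNA, was the other gene called lower with a count of 0 in every jazQ mycT library, against 27, 8 and 21 in Col-0, at least 5.1-fold higher in Col-0.

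AT1G67328, annotated as other RNA, was at 0, 0 and 0.23 TPM in jazQ mycT, against 4.88, 9.37 and 3.43 TPM in Col-0, and averaged 4.27 TPM in jazQ and 8.18 TPM in mycT. Its log2 fold change against Col-0 was −6.07 (edgeR adjusted p = 0.000961), the second steepest fall among the ranked genes.

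Around the 8 mutated loci, 160 tested neighbours (10 on each side) held 4 rises and 1 fall. The neighbours were thus called no more often than all genes tested (2.81% higher and 2.68% lower). Outside that chromosome's top, runs of 3 or more adjacent rises had at most 4 genes and included GLL22 with its neighbours, the lectins NSP4, PBP1 and JAL31, the nitrilases, the defensin-like genes around AT4G22214, the lipid-recognition genes around AT5G23840, and the marneral and thalianol clusters. The single run of adjacent falls was of 3 glutaredoxin-type genes, AT4G15680 to AT4G15700.

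Within the raised stretch, PAP7, a purple acid phosphatase, was at 26.5, 30.4 and 31.1 TPM in jazQ mycT, against 8.40, 11.4 and 12.7 TPM in Col-0, and AT2G04039 at 221, 283 and 268 TPM, against 127, 140 and 127 TPM. PAP7 averaged 19.6 TPM in jazQ and 10.9 TPM in mycT.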
